A study of Mus musculus with 24 samples.

Results

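The net change in gene expression of control bone-marrow-derived dendritic cells between day 7 and day 10 of culture was measured in 6 of the 24 libraries of the series, 3 on each day. All 6 were selected by their labels, and the same mice, numbered 63, 65 and 66, supplied a library on both days. These cells are labelled WT, but they carry ARPC4 Flox/Flox alleles without the Cre transgene (CD11c-Cre -/-), so floxed alleles are shared by every group of the series. The KO libraries, used here only for the difference between genotypes, came from mice 64, 67 and 68 with the same alleles and CD11c-Cre +/-, which directs deletion to cells that express CD11c. Marrow donors were male and female and 8 to 10 weeks old, with the sex of each mouse not stated. Cells were grown with GM-CSF from transfected J558 cells, replated on days 4 and 7, and taken from the suspension only, at a stated purity above 90% CD11c+. Day 7 is therefore also a replating day, and whether its cells were taken before or after replating was not given. Of the genes counted, 13933 were expressed highly enough in the 12 WT libraries of days 7 to 10 to be tested.

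GM-CSF acts through a receptor that activates JAK2 and STAT5, and it turns marrow progenitors into a mixture of dendritic cells, macrophages and granulocytes. Dendritic cells take up material, process it in endosomes and lysosomes, and display peptides on MHC class II molecules, whose transcription is governed by the coactivator CIITA. Macrophages of such cultures are known for strong lysosomal, lipid-handling and iron-handling gene expression, driven in part by PPAR gamma and the oxysterol receptor LXR.

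Library totals of the 6 libraries ran from 24361744 to 28115517 counts. Levels are given as CPM, a count scaled to a common library total, with library sizes scaled by the TMM method, which aligns libraries on the bulk of their genes. On principal components of log2 CPM of the 12 WT libraries, the first component (46.3% of variance) placed day 7 at -62.8 to -58.8 and days 8 to 10 at 3.30 to 32.9. The second component (21.45%) ordered day 8 below day 9 and day 9 below day 10, and no library lay outside its day. The 10 most counted genes took 20.9% to 21.3% of counts on day 7 and 13.6% to 15.1% on day 10. Mitochondrial transcripts took 2.67% to 3.16% and 2.17% to 2.94%. Library kits of 2 kinds were used without a statement of which library had which, so a kit difference between days cannot be told apart from the day. In such bulk samples, fewer cells of a type and less RNA per cell cannot be told apart either.

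**Figure D1:**
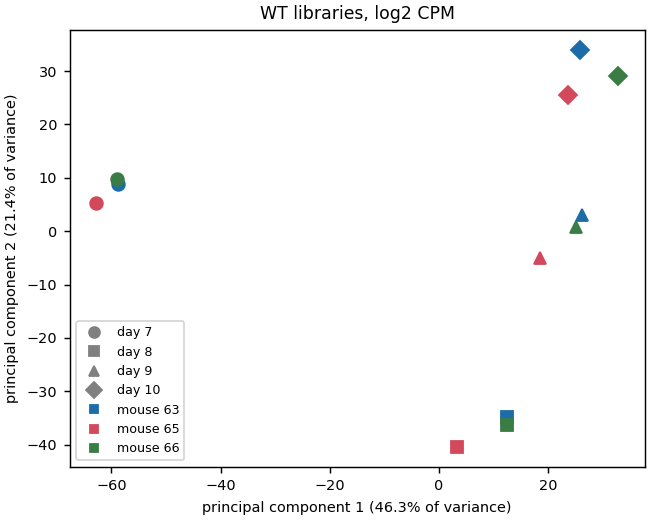
Each point is 1 of the 12 WT libraries on the first (x) and second (y) principal components of log2 CPM, in arbitrary units, with colour for the mouse and symbol for the day. Day 7 sits between -62.8 and -58.8 on the first component, and all later days sit above 3.

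Expression differed between the days across much of the transcriptome, in both directions. By edgeR's quasi-likelihood test with the mouse as a block, 6615 genes passed a Benjamini-Hochberg adjusted p under 0.05 (47.5% of genes tested), 3291 higher on day 10 (23.6%) and 3324 lower (23.9%). The rises were larger than the falls, and they concerned transcripts less abundant than those that fell. Genes that rose had a median of 14.9 CPM on day 7 and 25.3 CPM on day 10, with a median absolute log2 fold change of 0.63. Genes that fell had a median of 39.8 CPM on day 7 and 28.2 CPM on day 10, with a median absolute log2 fold change of 0.49. For genes not called the medians were 14.2 CPM on day 7 and 14.3 CPM on day 10, near the day 7 level of those that rose. With a 2-fold change required as well, 1108 genes were higher (7.95%) and 667 lower (4.79%). The 3 mice moved the same way for 6555 of the 6615 genes, and the values of the days did not overlap for 6109 of them, against 52.7% of all genes tested. A positive log2 fold change is a rise to day 10. Its median over all genes was -0.01 after TMM scaling but 0.22 on the scale of the deposited TPM, which are scaled to transcript length and to a fixed total, where 6681 of 8057 calls were higher in place of 3291 of 6615. List medians are therefore to be read against that of all genes, and list counts against the 23.6% higher and 23.9% lower of all genes. On the TPM scale 10 of the 52 list medians changed from below 0 to above it: the Arp2/3, actomyosin, ERK feedback, ATF4, tRNA synthetase, ribosomal protein, eicosanoid, glycolysis, mast cell and monocyte lists. Among the 12245 protein-coding genes 50.5% were called, among 325 lincRNAs 35.1% and among 367 processed pseudogenes 15.5%.

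Among genes with a mean log2 CPM above 1, the largest rises included a membrane enzyme, a T cell chemokine and several surface receptors. Car4, a membrane carbonic anhydrase (chr11:84957786-84966044 on GRCm38), was at 0.588, 0.275 and 0.669 CPM on day 7 and 89.3, 45.7 and 61.5 CPM on day 10, in the order of mice 63, 65 and 66 used throughout (log2 fold change 6.99, SE 0.12, adjusted p = 2.22e-16). The day 10 values were all far above those of day 7, and the level had already reached 95.3 CPM on day 8. Ccl17, a chemokine that attracts CCR4-bearing T cells (chr8:94810453-94812036), was at 1.61, 1.56 and 1.42 CPM on day 7 and 112, 112 and 154 CPM on day 10 (log2 fold change 6.35, SE 0.12, adjusted p = 1.23e-15). Plet1, a surface protein found on intestinal and cultured dendritic cells (chr9:50494525-50505482), was at 7.65, 8.01 and 8.15 CPM on day 7 and 263, 320.2 and 409 CPM on day 10 (log2 fold change 5.36, SE 0.09, adjusted p = 2.22e-16). Neither gene overlapped between days, and both continued to rise after day 8, Plet1 from 145 to 247 CPM on day 9.

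The other rises of this size followed 2 courses. Cd209c, a C-type lectin (6.31 on the log2 scale), Adra2a, an adrenergic receptor (6.04), Snai3 (5.44), Kctd14 (5.33), Hr (4.92), Trp53i11 (4.76) and Itgae, the integrin subunit CD103 (4.67), had mean levels that climbed on each day to their highest on day 10. Itgae, for example, had mean levels of 0.442, 1.28, 3.53 and 11.7 CPM on days 7, 8, 9 and 10. Cyp4a12a instead was highest on day 8. It held at most 1 count in each day 7 library and 54 to 79 counts in those of day 10. Against a floor of 3 counts per library this is at least 18.2-fold higher. Its near copy Cyp4a12b could share reads with it, so the identity of the gene is uncertain. Mfsd2a, a lysophospholipid transporter, held 2 or 3 counts per library on day 7 and 159 to 200 counts after the 3 further days, which is at least 49.1-fold higher.

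A further set of genes was at or under 3 counts in every day 7 library and at 30 counts or more in every day 10 library. There were 16 such genes with Cyp4a12a and Mfsd2a included, and 0 showed the reverse. These genes were chosen after their values were seen. Afap1l2, an adaptor of Src family signalling, had 0 counts on day 7 but 105 to 173 in the later libraries, at least 40-fold higher. Epcam, an epithelial adhesion molecule also present on Langerhans cells, had 0 or 1 count and then 100 to 148, at least 35.4-fold higher. Tox, a nuclear factor of lymphocyte development, rose at least 20.1-fold, and Cd3g, a chain of the T cell receptor complex, at least 16.6-fold, from 0 or 1 count to 53 to 66. Cd3e and Cd3d, T cell genes of the lymphoid marker list, which does not hold Cd3g, did not pass the filter on low counts.

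**Figure D2:**
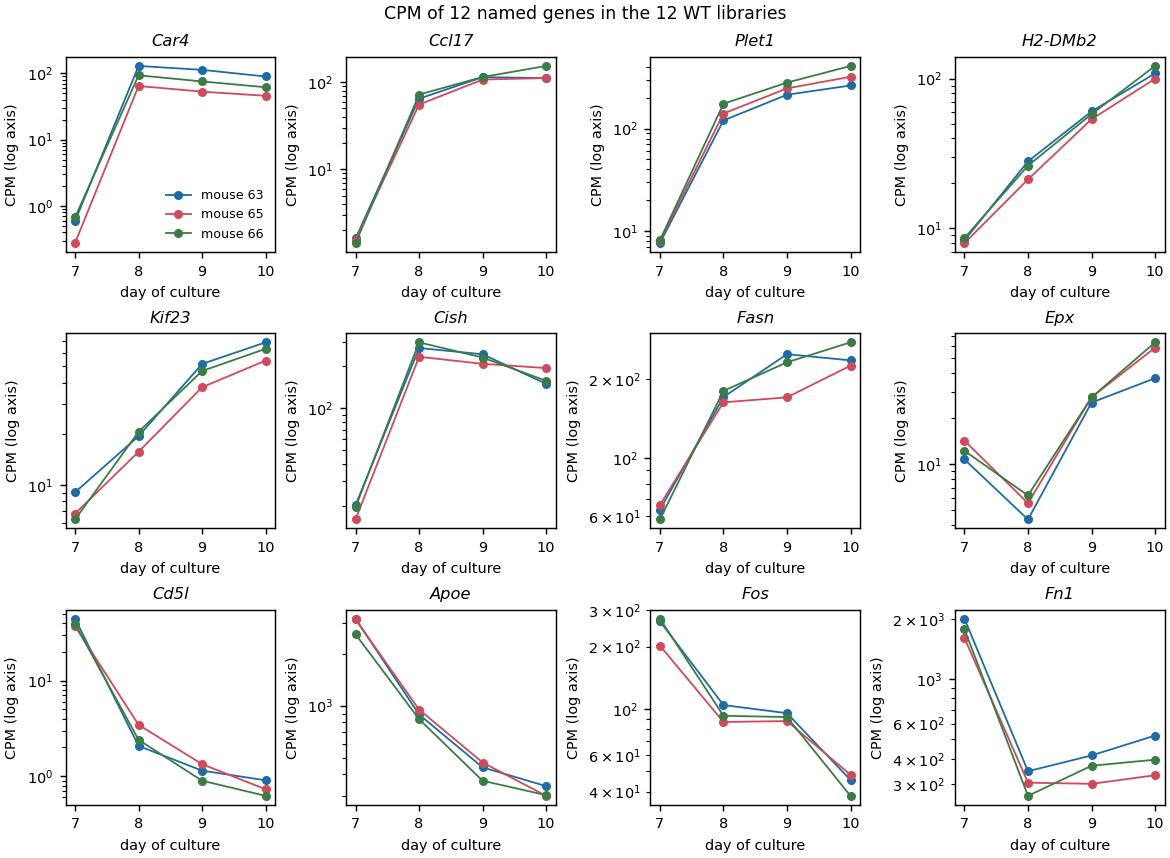
CPM on a log axis (y) of 12 genes in each of the 12 WT libraries by day of culture (x), with 1 line per mouse. From day 7 to day 10 the 3 mice move the same way for each gene, and in all 12 panels the day 10 values lie outside the range of day 7.

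With the same limit on abundance, the largest falls included macrophage products, an apolipoprotein, chemokines and an early-response gene. Cd5l, a secreted macrophage protein that is a target of LXR (chr3:87357881-87371073), was at 44.2, 37.0 and 38.9 CPM on day 7 and 0.906, 0.731 and 0.624 CPM on day 10 (log2 fold change -5.72, SE 0.18, adjusted p = 2.57e-13). Most of that fall had occurred by day 8, at 2.64 CPM. Apoe, the apolipoprotein of cholesterol export (chr7:19696109-19699188), was at 3192, 3161 and 2593 CPM on day 7 and 341, 299.8 and 303 CPM on day 10 (log2 fold change -3.24, SE 0.08, adjusted p = 2.25e-14). It fell on each day, to means of 891, 424 and 315 CPM on days 8, 9 and 10. Rgs1, a regulator of G protein signalling in chemotaxis, was at 414, 384 and 450.3 CPM on day 7 and 35.5, 47.6 and 41.0 CPM on day 10 (log2 fold change -3.35, SE 0.13, adjusted p = 2.07e-12). No values of these genes overlapped between days.

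Fosb (-4.76), Fam83f (-3.23), Rims3 (-2.95), the adhesion molecule Vcam1 (-2.93), the chemokines Ppbp (-2.91), Cxcl14 (-2.79) and Cxcl2 (-2.73), and Vsig8 (-2.74) completed the 12 largest falls on the log2 scale above that limit. Cox6a2 (-3.99) is also among them, but its gene is contained in Itgad, which is read in the other direction, and whether counting used strand was not given. Ppbp and Cxcl2 did not fall at once: their means were 93.2 and 51.9 CPM on day 7, 110.0 and 69.8 CPM on day 8, and 12.4 and 7.78 CPM on day 10. Vcam1 varied among mice on day 7, at 25.9, 13.2 and 10.8 CPM, and all of these exceeded the 2.54, 1.58 and 2.22 CPM of day 10.

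Genes of cell division formed the list with the largest median rise. Condensation and segregation of chromosomes need kinesins, cyclin B and its kinase, and the spindle checkpoint, and these genes are transcribed mainly in cycling cells. Of the mitosis list, 65 of 66 tested members were higher and 0 lower, with a median log2 fold change of 2.62, against -0.01 for all genes. At least 2-fold rises were seen in 62 of them. Mki67, the usual marker of cycling cells, was at 58.3, 46.1 and 46.5 CPM on day 7 and 335, 258 and 306 CPM on day 10 (log2 fold change 2.57, SE 0.07, adjusted p = 6.81e-14). Top2a, the topoisomerase of chromosome separation, was at 47.5, 38.1 and 38.6 CPM on day 7 and 308, 247 and 315 CPM on day 10 (log2 fold change 2.81, SE 0.07, adjusted p = 3.22e-14). The kinesin Kif23, which builds the midzone of the dividing cell, was at 9.06, 6.78 and 6.27 CPM on day 7 and 69.1, 54.0 and 63.3 CPM on day 10 (log2 fold change 3.08, SE 0.10, adjusted p = 3.08e-13). The days did not overlap for any of these genes. Summed over the list, 631 to 756 CPM on day 7 became 2607 to 3355 CPM on day 10. Only Pttg1, which guards sister chromatid cohesion, did not pass the threshold, at means of 15.4 and 15.5 CPM.

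Replication and repair genes rose with them, though less. In the DNA replication list, 45 of 47 tested members were higher and 1 lower, with a median log2 fold change of 1.53. Pole, the catalytic subunit of the leading-strand polymerase, was at 4.20, 2.93 and 3.22 CPM on day 7 and 29.4, 20.7 and 24.8 CPM on day 10 (log2 fold change 2.85, SE 0.10, adjusted p = 5.45e-13), with no overlap. Orc1 (2.95), which marks origins, and Uhrf1 (2.81), which keeps DNA methylation, rose by similar amounts. For double-strand break repair, 27 of 34 tested members were higher and 1 lower, with a median log2 fold change of 1.05, led by Rad51ap1 (2.95) and Rad54b (2.88). The median log2 change from day 7 of the replication list was 0.74 on day 8, 1.44 on day 9 and 1.53 on day 10, and that of the mitosis list 0.88, 2.31 and 2.62. Among CDK inhibitors and D cyclins, 9 of 15 tested members were higher and 2 lower, with a median log2 fold change of 0.55. The D cyclins Ccnd2 (log2 fold change 2.07, SE 0.08, adjusted p = 3.14e-12) and Ccnd3 (1.59) rose, as did the inhibitor Cdkn2c (1.46). The inhibitor Cdkn1c fell from 20.3, 29.0 and 19.4 to 2.16, 7.69 and 4.54 CPM (log2 fold change -2.34, SE 0.20, adjusted p = 4.88e-08). Over the same days neutrophil and granule markers were higher in 19 of 26 tested members, with a summed level of 3603 to 5485 CPM on day 7 and 6102 to 8227 CPM on day 10, and 0 of them were at 0 throughout. Progenitor markers summed to 407 to 433 CPM and 433 to 461 CPM. The part of either in the rise of cell cycle genes was not tested.

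Promoter sequences were searched for short sequence motifs. Those of cell cycle genes are known to carry shared elements. RefSeq promoters (GRCm38.p6, 250 bases before to 50 after the start) matched 10282 of the 13933 tested genes by symbol, chromosome and strand. Searched on both strands, the core of the cell cycle homology region, TTTGAA, stood in 37 of 55 mitosis promoters (67.3%) and in 12.2% of all. It also stood in 8 of 17 C-type lectin promoters (47.1%) and 7 of 20 of apoptosis regulators (35.0%). CCAAT stood in 40 of 55 (72.7%) against 38.8%, and in larger shares of the endoplasmic reticulum chaperone (93.3%), cholesterol synthesis (88.2%) and MHC class I (83.3%) lists. The E2F motif, TTTCCCGC or TTTGGCGC, stood in 12 of 38 promoters of the replication list (31.6%) against 3.09% of all. For the interferon element GAAANNGAA the share was 25 of 40 in the interferon list (62.5%) against 7.50%. The sterol element TCACNCCAC stood in 1 of 17 promoters of the cholesterol list (5.88%) against 1.06%. These are descriptions of letters in a window, not binding sites. The mitosis list is shown because its share of TTTGAA differed most from that of all genes, over all lists and motifs searched. It lay 55.03 points above all genes, close to 55.0 for the interferon element in the interferon list. For CCAAT in the endoplasmic reticulum chaperone list the figure was 54.5. Shown are the promoters of the 3 genes with the largest rise in the mitosis list, Kif23 (chr9:61946775-61947049, minus strand), Aspm (chr1:139454523-139454797, plus strand) and Kif14 (chr1:136467598-136467872, plus strand), up to 25 bases after the start, with the TTTGAA element or its reverse complement in capitals.
Kif23: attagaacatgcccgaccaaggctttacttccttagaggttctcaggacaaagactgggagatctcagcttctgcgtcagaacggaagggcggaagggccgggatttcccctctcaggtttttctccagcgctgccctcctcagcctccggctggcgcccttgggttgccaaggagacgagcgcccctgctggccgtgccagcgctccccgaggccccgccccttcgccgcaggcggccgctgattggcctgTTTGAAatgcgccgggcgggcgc
Aspm: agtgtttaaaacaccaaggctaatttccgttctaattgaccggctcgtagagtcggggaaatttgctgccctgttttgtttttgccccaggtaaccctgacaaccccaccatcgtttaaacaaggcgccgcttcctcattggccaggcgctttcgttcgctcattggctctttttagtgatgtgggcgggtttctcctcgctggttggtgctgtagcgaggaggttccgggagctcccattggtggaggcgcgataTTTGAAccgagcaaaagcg
Kif14: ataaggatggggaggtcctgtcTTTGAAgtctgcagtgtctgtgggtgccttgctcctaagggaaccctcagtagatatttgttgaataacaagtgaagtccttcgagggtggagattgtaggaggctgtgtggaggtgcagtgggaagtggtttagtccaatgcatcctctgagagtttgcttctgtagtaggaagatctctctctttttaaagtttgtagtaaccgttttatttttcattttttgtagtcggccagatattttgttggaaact
The match begins 2 bases after the start base in Kif23 and 6 bases after it in Aspm, whereas in Kif14 it begins 228 bases before, and that start lies 1505 bases from the 5′ end of the gene in GENCODE M21. Each sequence holds 1 match, and the log2 fold changes of the 3 genes are 3.08, 3.08 and 3.06.

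**Figure D3:**
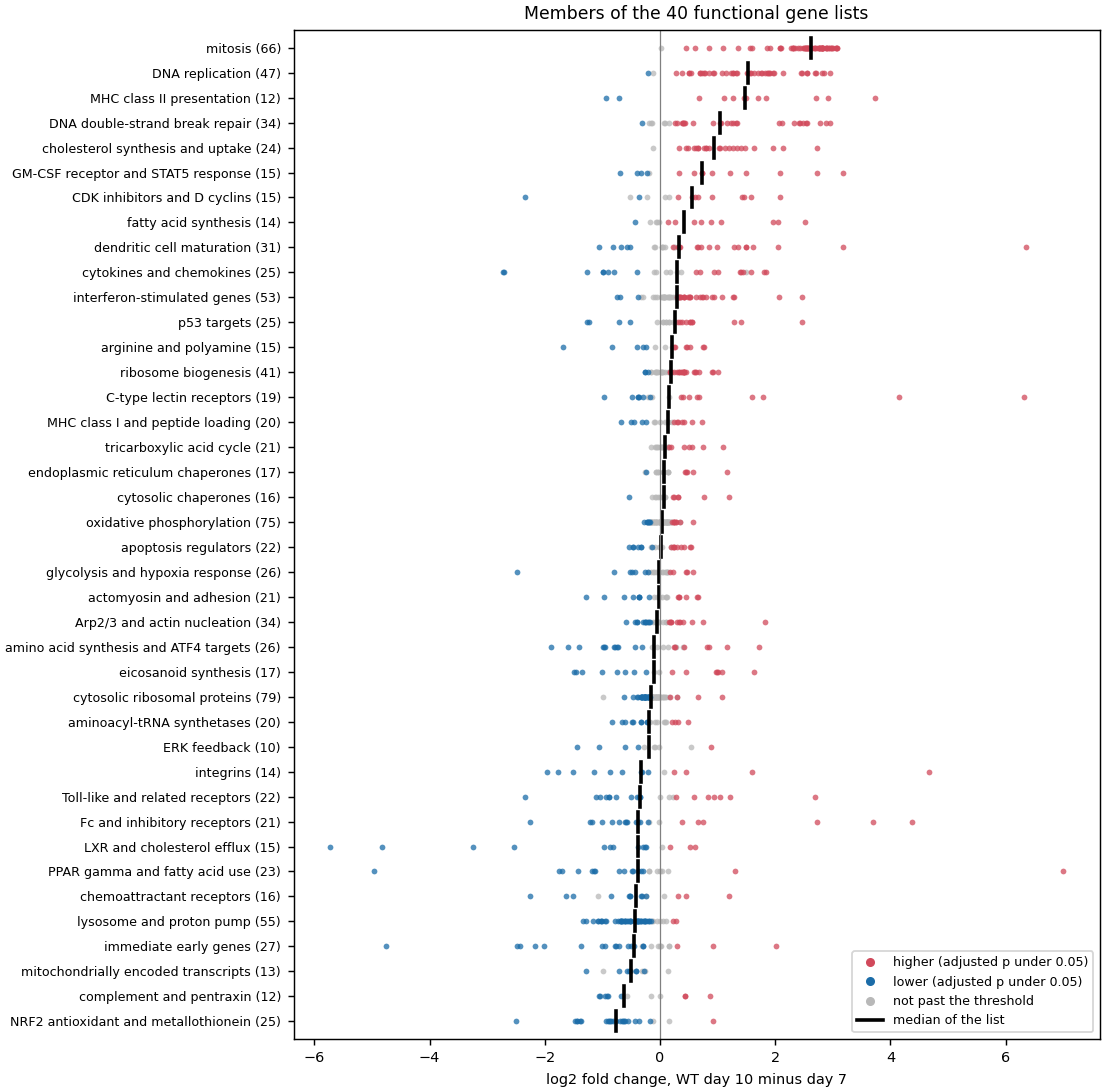
Each point is a tested member of 1 of 40 functional gene lists (rows, ordered by median, number of members tested in brackets) at its log2 fold change from day 7 to day 10 (x), coloured by the test, with a bar at the list's median. Cell division, MHC class II and sterol synthesis lie to the right, with medians of 2.62 for mitosis and 0.94 for cholesterol synthesis, and lysosomal and NRF2 lists to the left, at -0.44 and -0.76.

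Most genes of the MHC class II list, the coactivator Ciita among them, were higher on day 10. Of 12 members of the MHC class II list, 10 were higher and 2 lower, with a median log2 fold change of 1.48. Ciita, the coactivator of the class II promoters (chr16:10480059-10528418), was at 14.7, 16.6 and 16.2 CPM on day 7 and 125, 107 and 127 CPM on day 10 (log2 fold change 2.92, SE 0.09, adjusted p = 1.52e-13). H2-DMb2, a chain of the peptide editor H2-M (chr17:34143307-34151555), was at 8.31, 7.97 and 8.61 CPM on day 7 and 108, 99.9 and 122 CPM on day 10 (log2 fold change 3.73, SE 0.08, adjusted p = 6.77e-15). H2-Ab1, the beta chain of the main class II molecule, was at 199, 268 and 323 CPM on day 7 and 744, 731 and 1088 CPM on day 10 (log2 fold change 1.70, SE 0.09, adjusted p = 1.58e-10), and Cd74, its chaperone, at 760.2, 935 and 1087 CPM on day 7 and 2378, 2152 and 3417 CPM on day 10 (log2 fold change 1.50, SE 0.10, adjusted p = 1.03e-09). Day 10 exceeded day 7 in every mouse, without overlap, and mouse 66 had the highest values of H2-Ab1 and Cd74 on both days. H2-Ob (2.71) and H2-Oa (1.84), the chains of the editor's inhibitor, rose as well. The members that fell are endosomal enzymes: the protease Ctss (-0.93) and the thiol reductase Ifi30 (-0.71). Ctss was abundant, at 6938, 7274 and 7361 CPM on day 7 and 3169, 4243 and 4009.9 CPM on day 10, and the summed level of the list, 8817 to 9922 CPM on day 7 and 8236 to 11089 CPM on day 10, overlapped between days. On day 8 the list's median change was 0.22 and on day 9 0.80. Of the MHC class I and peptide loading genes, 7 of 20 were higher and 5 lower, against 23.6% and 23.9% of all genes. The numbers were 14 and 2 on the TPM scale, and in the fit of all 24 libraries 2 and 5. In the paired fit of the 12 WT libraries, the immunoproteasome subunit Psmb9 rose (0.55) and the heavy chain H2-D1 fell (-0.68).

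Dendritic cell lineage genes were more often higher than lower, but with a split among their transcription factors. Of this list, 13 of 18 tested members were higher and 4 lower, with a median log2 fold change of 0.78, and 2 were lower without mouse 65, by TPM or in the fit of all 24 libraries. Summed, its levels were 3665 to 4038 CPM on day 7 and 4227 to 4908 CPM on day 10. Itgax, which encodes CD11c, was at 1064, 1286 and 1043 CPM on day 7 and 1124, 1629 and 1291 CPM on day 10 (log2 fold change 0.24, SE 0.07, adjusted p = 0.0094). Irf4, a factor of type 2 conventional dendritic cells, was at 37.2, 42.4 and 39.8 CPM on day 7 and 121, 111 and 108 CPM on day 10 (log2 fold change 1.51, SE 0.07, adjusted p = 3.15e-11), and Zbtb46, a factor of conventional dendritic cells, at 2.75, 2.11 and 3.22 CPM on day 7 and 10.8, 10.7 and 11.9 CPM on day 10 (log2 fold change 2.05, SE 0.14, adjusted p = 1.69e-09). Irf8, a factor of type 1 cells, was at 228, 232 and 239 CPM on day 7 and 135, 136 and 132 CPM on day 10 (log2 fold change -0.80, SE 0.05, adjusted p = 2.37e-09). Its partner Batf3 fell too (-0.89), and Clec9a was called lower at -0.39 with overlapping days (adjusted p = 0.042), a call lost without mouse 65 or 66. Xcr1, the other surface marker of type 1 cells, did not pass the filter on low counts. Btla (4.22), Cd209a (4.14), Kmo (3.34), Dpp4 (2.42) and Mgl2 (1.59) rose. Flt3, the receptor that marks dendritic cells grown with FLT3 ligand, was low on both days, with means of 1.36 and 2.06 CPM.

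Maturation genes changed in part. In the dendritic cell maturation list, 18 of 31 tested members were higher and 5 lower, with a median log2 fold change of 0.33, and 3 were lower without mouse 65. The counts were 23 and 3 by TPM and 12 and 2 in the fit of all 24 libraries. Ccl22, a chemokine for the same receptor as Ccl17, was at 64.1, 53.1 and 67.9 CPM on day 7 and 283, 175 and 316 CPM on day 10 (log2 fold change 2.04, SE 0.12, adjusted p = 4.06e-10). Among costimulatory molecules Cd80 (0.85) and Cd86 (0.35) rose, as did Pdcd1lg2, a ligand of PD-1 (1.49), and Fscn1, an actin bundler of mature cells (0.99). The homing receptor Ccr7 rose by 0.30. Cd83, an activation marker, was at 35.1, 41.9 and 47.1 CPM on day 7 and 27.5, 20.2 and 29.9 CPM on day 10 (log2 fold change -0.67, SE 0.11, adjusted p = 8.32e-05), so all of its day 7 values exceeded those of day 10. The call for Cd83 was lost in the fit of all 24 libraries.

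Most genes of the GM-CSF receptor and its STAT5 response were higher on day 10. Cish, a feedback inhibitor of cytokine receptors (chr9:107296026-107302784), was at 20.2, 15.98 and 19.6 CPM on day 7 and 150.1, 195 and 158 CPM on day 10 (log2 fold change 3.17, SE 0.12, adjusted p = 1.74e-12). Its mean was highest on day 8, at 268 CPM. Socs1 (2.72) and Socs2 (1.50), inhibitors of the same kind, Jak2 (1.21) and the shared receptor chain Csf2rb (0.73) rose. Csf2rb was abundant, at 1999, 2391 and 2187 CPM on day 7 and 3271, 4047 and 3607 CPM on day 10, without overlap. Of the list, 10 of 15 tested members were higher and 4 lower, with a median log2 fold change of 0.72. The numbers were 10 and 0 by TPM and 10 and 2 in the fit of all 24 libraries. Socs3, more closely tied to STAT3, was called lower (-0.69) with overlapping days, at 97.7, 61.6 and 113 CPM on day 7 and 47.0, 67.7 and 51.5 CPM on day 10. Stat5b, a gene of STAT5 itself, was also called lower, though on the TPM scale its log2 fold change was 0.044. The list's median change was 0.70 on day 8 and 0.72 on day 9, close to that of day 10.

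Immediate early genes, which are switched on within minutes of stimulation, were mostly lower on day 10. Of 27 tested, 16 fell and 3 rose, with a median of -0.45, against 12 and 8 on the TPM scale. Fos was at 265, 202 and 273 CPM on day 7 and 45.5, 48.2 and 38.1 CPM on day 10 (log2 fold change -2.48, SE 0.10, adjusted p = 3.59e-12). Egr1 was at 241, 182 and 285 CPM on day 7 and 39.1, 56.1 and 34.0 CPM on day 10 (log2 fold change -2.44, SE 0.17, adjusted p = 4.59e-09), and Dusp1, a phosphatase that ends MAP kinase signals, fell by 2.17 on the log2 scale. Day 7 was the higher day in each mouse, without overlap for Fos and Egr1. Nr4a3 went the other way, from 7.49, 5.95 and 8.94 to 36.2, 22.95 and 32.3 CPM (log2 fold change 2.02, SE 0.12, adjusted p = 5.96e-10). ERK feedback genes included 4 that fell and 1 that rose of 10, or 3 and 3 on the TPM scale, with Dusp4 (-1.44) and Dusp6 (-1.07) lower and Phlda1 (0.89) higher.

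The median of the cytokine and chemokine list was highest between the 2 days compared. Of the list, 10 of 25 tested members were higher and 8 lower, beside 23.6% and 23.9% of all genes. The median log2 fold change was 0.30, but the median change from day 7 was 1.46 on day 8 and 0.99 on day 9. Ccl7, a monocyte chemoattractant, had means of 11.4, 237, 164 and 41.2 CPM on the 4 days, and Tnf 11.3, 97.6, 71.8 and 39.2 CPM. Their net changes of 1.84 and 1.80 on the log2 scale are therefore smaller than the excursion. Ccl6, the gene with the largest gain in CPM of all, was at 3879.6, 3240.5 and 3149 CPM on day 7 and 7978, 10017 and 9027 CPM on day 10 (log2 fold change 1.40, SE 0.10, adjusted p = 2.79e-09). The neutrophil chemoattractants Cxcl2, Cxcl1 (-2.70) and Cxcl3 (-1.26) fell, with Il1a and Il1rn at -0.90 and -0.998. Interferon-stimulated genes also stood higher on day 8, at a median of 0.71, than on day 10. On day 10, 25 of 53 tested members were higher and 3 lower, with a median log2 fold change of 0.29, with Gbp7 (2.07) and Usp18 (1.27) among those higher. The number higher was 20, 33 and 23 without mouse 63, 65 and 66, and 19 in the fit of all 24 libraries. The numbers lower were 5 without mouse 63 and 2 without mouse 65, and on the TPM scale 38 were higher and 2 lower.

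**Figure D4:**
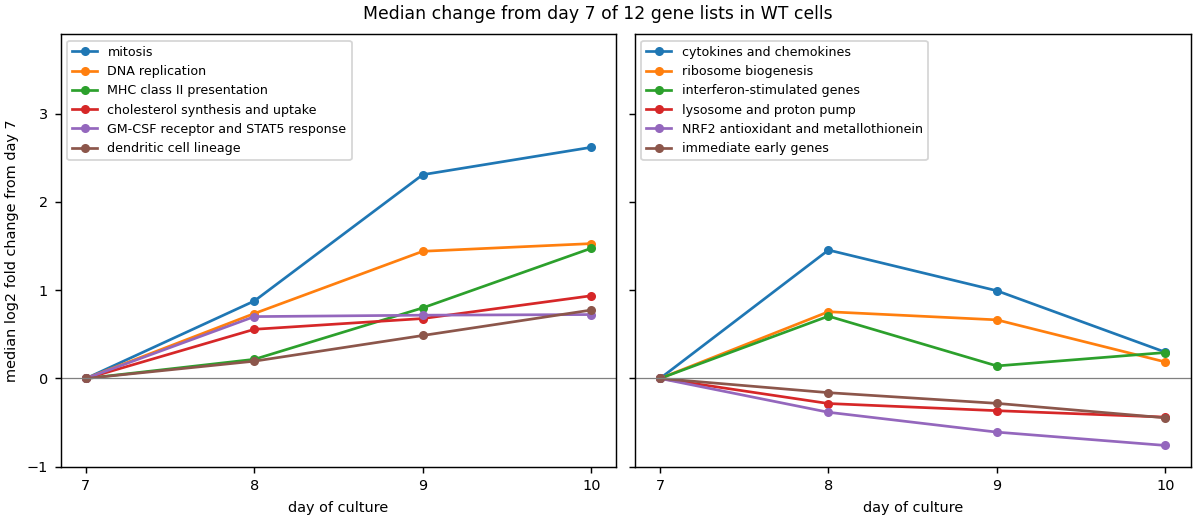
Median log2 fold change from day 7 (y) of 12 gene lists on days 7 to 10 (x) in WT cells, from 1 fit in which all days share the day 7 libraries, so day 7 is 0 by construction. Mitosis and MHC class II genes climb to 2.62 and 1.48 on day 10, while cytokines reach 1.46 on day 8 and return to 0.30.

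Sterol synthesis genes rose, and most genes of the LXR and cholesterol efflux list fell. Cells make cholesterol through the mevalonate pathway under control of SREBP2 and send it out through LXR targets. Of the synthesis and uptake list, 23 of 24 tested members were higher and 0 lower, with a median log2 fold change of 0.94. Fdps, the farnesyl diphosphate synthase, was at 1.14, 1.37 and 1.25 CPM on day 7 and 8.61, 8.15 and 8.18 CPM on day 10 (log2 fold change 2.73, SE 0.15, adjusted p = 2.01e-10), a low level that is uncertain because near-identical processed copies of the gene could share its reads. Srebf2 itself, the factor's gene, was at 169, 168 and 176 CPM on day 7 and 289.7, 268 and 338 CPM on day 10 (log2 fold change 0.80, SE 0.07, adjusted p = 6.84e-08). Both genes were higher on day 10 in every mouse, and neither overlapped between days. Dhcr7 alone did not pass the threshold, at -0.13. Fatty acid synthesis followed, with 9 of 14 higher and 1 lower. Fasn, the fatty acid synthase, was at 63.6, 66.3 and 58.4 CPM on day 7 and 237, 226 and 277 CPM on day 10 (log2 fold change 1.97, SE 0.10, adjusted p = 7.84e-11), and the desaturase Fads2 (2.51) and the elongase Elovl6 (2.05) rose similarly.

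Lipid-handling genes of macrophages were more often lower than higher. Of the LXR and cholesterol efflux list, 3 of 15 tested members were higher and 11 lower, with a median log2 fold change of -0.39. Beside Apoe and Cd5l, Pltp, the phospholipid transfer protein, was at 263, 242 and 273 CPM on day 7 and 51.4, 35.6 and 47.1 CPM on day 10 (log2 fold change -2.54, SE 0.09, adjusted p = 7.59e-13), and the exporter Abca1 fell by 0.87 on the log2 scale, whereas the transporters Abcg1 and Abca7 rose by 0.61 and 0.52. In TPM, 4 of this list were higher and 7 lower. In the PPAR gamma list, 2 of 23 tested members were higher and 14 lower, with a median log2 fold change of -0.39, and on the TPM scale 7 were higher and 11 lower. Plin2, the coat of lipid droplets, was at 1827, 1843 and 1872 CPM on day 7 and 501, 575 and 579 CPM on day 10 (log2 fold change -1.75, SE 0.09, adjusted p = 6.10e-11). Cd36, a fatty acid importer, was at 1024, 1307 and 1029 CPM on day 7 and 276, 466 and 313 CPM on day 10 (log2 fold change -1.70, SE 0.08, adjusted p = 1.92e-11). Lpl, the lipoprotein lipase, was at 6122, 7477 and 6944 CPM on day 7 and 2574, 3602 and 3206 CPM on day 10 (log2 fold change -1.14, SE 0.07, adjusted p = 1.52e-09). All 3 genes were lower on day 10 without overlap. Car4, also listed as a PPAR gamma target, is the large exception.

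Most lysosomal and antioxidant genes were lower, abundant ones such as Psap and Fth1 among them. In the lysosome and proton pump list, 2 of 55 tested members were higher and 47 lower, with a median log2 fold change of -0.44. With TPM, 8 were higher and 28 lower. Their summed level went from 103217 to 109177 CPM on day 7 to 52463 to 64113 CPM on day 10. Ctsb, a cathepsin protease, was at 14134, 16064 and 14848 CPM on day 7 and 5793, 8606 and 7193 CPM on day 10 (log2 fold change -1.07, SE 0.08, adjusted p = 9.25e-09). Psap, the precursor of the saposins, was at 37906, 38821 and 37546 CPM on day 7 and 18229, 20535 and 19943 CPM on day 10 (log2 fold change -0.96, SE 0.08, adjusted p = 1.88e-08). Lipa, the acid lipase (-1.34), Acp5 (-1.29) and Lgmn (-1.16) fell most, and Ppt1 (0.27) and Ctsc (0.23) were the members called higher, the call of Ctsc being lost without the block. Macrophage markers fell over the same days in 16 of 21 tested members, with a sum of 33504 to 37971 CPM on day 7 and 18598 to 25473 CPM on day 10, and their part in the falls of lysosomal and lipid-handling genes was not tested.

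Of the NRF2 and metallothionein list, 1 of 25 tested members were higher and 22 lower, with a median log2 fold change of -0.76. Hmox1, which degrades heme, was at 446, 545 and 449 CPM on day 7 and 159, 174 and 180.5 CPM on day 10 (log2 fold change -1.48, SE 0.06, adjusted p = 9.48e-12). Fth1, the heavy chain of the iron store ferritin, was at 36602, 38653 and 37548 CPM on day 7 and 18431, 22732 and 19349 CPM on day 10 (log2 fold change -0.90, SE 0.08, adjusted p = 4.87e-08). The light chain Ftl1 (-0.66), the iron exporter Slc40a1 (-1.45) and the peroxidase Prdx1 (-1.44) fell, while Nqo1 rose (0.92). None of the days overlapped for Hmox1 or Fth1. The 10 genes with the largest loss of CPM, Lyz2, Psap, Fth1, Gpnmb, Ctsb, Ctsd, Ftl1, Lpl, Ctss and mt-Co1, together took 22.8% to 23.2% of scaled counts on day 7 and 11.6% to 13.3% on day 10, and the call of mt-Co1 was lost without mouse 65 or 66. The 10 with the largest gain, Ccl6, Cd74, Csf2rb, Chil3, S100a9, Vim, S100a8, H2-Ab1, Ifitm1 and Scd2, took 1.08% to 1.16% and 2.26% to 2.69%. Lyz2, which encodes lysozyme and is the most abundant of them, was at 65893, 54548 and 59343 CPM on day 7 and 30426, 28081 and 31359 CPM on day 10 (log2 fold change -0.997, SE 0.08, adjusted p = 1.40e-08).

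Counts for protein synthesis and energy genes depended on the scaling. The median of the ribosomal proteins changed sign with it, but lay below that of all genes on both scales. Of the cytosolic ribosomal protein list, 4 of 79 tested members were higher and 32 lower, with a median log2 fold change of -0.16, but on the TPM scale 27 were higher and 2 lower and the median was 0.11, below the 0.22 of all genes. The number lower was 20 without mouse 63 and 18 without mouse 65, and the number higher 2 without mouse 65. Ribosome biogenesis genes peaked on day 8 at a median of 0.76. On day 10, 22 of 41 tested members were higher and 3 lower, with a median log2 fold change of 0.19, with Heatr1, a factor of pre-ribosomal RNA transcription (0.92), and Myc (0.90) among those higher, of which there were 12 without mouse 65. For oxidative phosphorylation 8 of 75 nuclear genes were higher and 7 lower, but 59 and 0 on the TPM scale, where the median lay 0.09 above that of all genes. Without mouse 63, 65 and 66 the numbers higher were 15, 2 and 2, and the numbers lower 2, 2 and 7. Of the 13 transcripts encoded in mitochondria 8 were lower and 0 higher, with a median of -0.51, and 4 were lower without mouse 66. By TPM 0 of them were called in either direction. mt-Cytb, for example, fell from 5965, 5015 and 5079.7 to 3678, 3781 and 3329.6 CPM (log2 fold change -0.58, SE 0.10, adjusted p = 1.06e-04). In the tricarboxylic acid cycle list 7 of 21 were higher and 0 lower, led by Me2 (1.09) and Fh1 (0.74). Endoplasmic reticulum chaperones were higher in 5 of 17 and lower in 1, and cytosolic chaperones in 6 of 16 and 1, against 23.6% and 23.9% of all genes. On the TPM scale 20 and 0 of the tricarboxylic acid cycle list, 15 and 0 of the first chaperone list and 14 and 1 of the second were higher and lower, and 34 and 0 of the ribosome biogenesis list. Pdia4 (1.16) and Xbp1 (0.57) led the first and Cct8 (0.32) is in the second. Without mouse 65, 4 genes of the tricarboxylic acid cycle and 3 cytosolic chaperones were higher, and without mouse 66 the latter number was also 3.

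Amino acid response genes fell in part. The factor ATF4 induces amino acid synthesis, transport and tRNA charging when amino acids are short. In the ATF4 list, 7 of 26 tested members were higher and 12 lower, with a median log2 fold change of -0.10. Asns, the asparagine synthetase, was at 32.4, 38.1 and 46.3 CPM on day 7 and 9.66, 10.9 and 10.9 CPM on day 10 (log2 fold change -1.89, SE 0.12, adjusted p = 8.05e-10). Trib3 (-1.59) and the cystine transporter Slc7a11 (-0.99) fell, and the leucine transporter Slc7a5 (1.72) rose. Of the tRNA synthetases 9 of 20 were lower and 4 higher, with Cars (-0.83), Aars (-0.67) and Nars (-0.60) lowest and Vars (0.49) highest. The unadjusted medians of both lists were above 0 on the TPM scale, at 0.14 and 0.09, and below the median of all genes there. On that scale 11 and 9 genes were higher and 9 and 5 lower. Without mouse 65 the numbers higher were 4 and 2. In the glycolysis and hypoxia list 5 of 26 were higher and 7 lower, near the 23.6% and 23.9% of all genes, but 3 and 4 without mouse 65, 3 higher without mouse 66, and 14 and 3 on the TPM scale. Its largest change was in Vegfa, the angiogenic factor, which was at 449, 442 and 463 CPM on day 7 and 96.7, 93.5 and 57.1 CPM on day 10 (log2 fold change -2.48, SE 0.12, adjusted p = 3.82e-11), without overlap and already at 88.5 CPM on day 8.

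Receptors for microbes and immune complexes included members called higher and members called lower, beside 23.6% and 23.9% of all genes. On the TPM scale the numbers higher and lower were 10 and 7 for Toll-like and related receptors, 6 and 8 for Fc receptors, 10 and 2 for C-type lectins and 3 and 5 for chemoattractant receptors. In the fit of all 24 libraries they were 7 and 2 for C-type lectins and 1 and 7 for chemoattractant receptors. Among Toll-like and related receptors, 7 of 22 tested members were higher and 12 lower, with a median log2 fold change of -0.34. Cd14, the lipopolysaccharide co-receptor, was at 220.1, 170.4 and 244 CPM on day 7 and 42.9, 36.6 and 44.8 CPM on day 10 (log2 fold change -2.35, SE 0.08, adjusted p = 4.25e-13), while Tlr2 rose from 115, 77.1 and 108 to 246, 189 and 257 CPM (log2 fold change 1.21, SE 0.08, adjusted p = 8.53e-10). Neither gene overlapped between days. Of Fc and inhibitory receptors, 6 of 21 tested members were higher and 13 lower, with a median log2 fold change of -0.37. Fcgr4, an activating receptor for immunoglobulin G, was at 159.9, 137 and 143 CPM on day 7 and 37.3, 28.2 and 26.7 CPM on day 10 (log2 fold change -2.26, SE 0.09, adjusted p = 3.19e-12), and Siglecg rose (2.72). C-type lectin receptors were higher in 9 of 19 and lower in 7, with Cd209c and Cd209a at the top and Clec4d (-0.97) at the bottom, and 3 were lower without mouse 65 or 66. Chemoattractant receptors were lower in 10 of 16 and higher in 3. There the fractalkine receptor Cx3cr1 (-2.26), S1pr1 (-1.63) and C5ar1 (-1.51) fell, and P2ry14 (1.19) rose. Complement and pentraxin genes were lower in 6 of 12 and higher in 3, but higher in 2 without the block and in 1 in the fit of all 24 libraries, with Ptx3 (-1.05) and C1qc (-0.96) lower and properdin, Cfp (0.88), higher.

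Smaller groups of effector and survival genes also held members called higher and members called lower, beside 23.6% and 23.9% of all genes. On the TPM scale the numbers higher and lower were 9 and 5 for eicosanoid genes, 9 and 2 for the arginine list, 20 and 4 for p53 targets and 14 and 2 for apoptosis regulators. Of eicosanoid genes 7 of 17 were higher and 8 lower. Alox5, the first enzyme of leukotriene synthesis, was at 50.9, 51.9 and 61.8 CPM on day 7 and 169.9, 166 and 171 CPM on day 10 (log2 fold change 1.62, SE 0.09, adjusted p = 1.84e-10), and Pla2g7 (-1.46) and the prostaglandin receptor Ptger2 (-1.50) fell. In the arginine and polyamine list 7 of 15 were higher and 5 lower. Ass1, which makes argininosuccinate, was at 137, 161 and 153 CPM on day 7 and 238, 228 and 298 CPM on day 10 (log2 fold change 0.75, SE 0.08, adjusted p = 6.23e-07). Of p53 targets 11 of 25 were higher, Perp (2.47) most, and 4 were lower, Plk3 (-1.26) and Plk2 (-1.23) most. Apoptosis regulators were higher in 9 of 22 and lower in 7, with Mcl1 (-0.47) and Bcl2l11 (-0.47) lower, and 5 were higher without mouse 65. Bcl2a1d (0.54) and Bcl2a1b (-0.54) are near copies of each other, so their opposite calls are uncertain.

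Adhesion and actin genes, the machinery to which the floxed gene belongs, included members that rose and members that fell. Integrins were lower in 9 of 14 and higher in 4, or 6 and 5 on the TPM scale and 7 and 2 in the fit of all 24 libraries. Itga6, a laminin receptor chain, was at 180.0, 263 and 191 CPM on day 7 and 58.2, 68.0 and 57.8 CPM on day 10 (log2 fold change -1.77, SE 0.07, adjusted p = 3.43e-12), and Itgb3 (-1.50) and Itgb5 (-1.14) fell. Itgb7, the partner of Itgae, was at 42.8, 36.8 and 42.3 CPM on day 7 and 127, 103 and 141 CPM on day 10 (log2 fold change 1.60, SE 0.07, adjusted p = 1.11e-11). The Arp2/3 complex nucleates branched actin filaments, and formins build straight ones. In that list 11 of 34 were higher and 11 lower by TMM, beside 23.6% and 23.9% of all genes, against 21 and 2 on the TPM scale, and 7 were higher and 4 lower without mouse 65 and 6 higher without mouse 66. Arpc4, the floxed subunit, was at 185, 184 and 194 CPM on day 7 and 206, 204 and 238 CPM on day 10 (log2 fold change 0.20, SE 0.06, adjusted p = 0.013) in these cells without Cre. The formins Diaph3 (1.83) and Fmnl1 (0.75) rose most and Fmnl3 (-0.59) fell most. Of actomyosin and adhesion genes, beside the same 23.6% and 23.9% of all genes, 6 of 21 were higher, with Actn1 (0.66) and Vim (0.64) at the top, and 8 lower, with Tpm2 (-1.28), Myh10 (-0.97), Lima1 (-0.63) and Vcl (-0.47) among them, Tpm2 and Myh10 with overlapping days. The number lower was 5 without mouse 65, and on the TPM scale 13 were higher and 3 lower.

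Markers of the other cell types of such cultures were present on both days, with members called higher and lower beside 23.6% and 23.9% of all genes. Of the macrophage markers, lower in 16 of the 21 tested and higher in 2 (1 without mouse 65; 10 and 3 on the TPM scale; 10 and 1 in the fit of all 24 libraries), 0 were at 0 in all 6 libraries and Folr2 fell most (-3.07). Csf1r, the receptor for M-CSF, was at 1091, 1197 and 1161 CPM on day 7 and 801, 795 and 840.5 CPM on day 10 (log2 fold change -0.50, SE 0.06, adjusted p = 3.08e-06), so it stayed well above 0 on day 10 in cells taken from the suspension. The mannose receptor Mrc1 rose (0.65). Alveolar-type macrophage markers were higher in 8 of 15 and lower in 5, with sums of 10520.4 to 12011 CPM on day 7 and 7193 to 7876 CPM on day 10. Chil3 rose from 1055, 766 and 985 to 2249, 1407 and 1919 CPM (log2 fold change 0.98, SE 0.07, adjusted p = 4.87e-09), and Fabp4 fell (-1.17). Monocyte markers were higher in 5 of 16 and lower in 8, with sums of 57558 to 69493 CPM and 29724 to 33227 CPM, most of it Lyz2. They were higher in 7 and lower in 5 on the TPM scale and in 3 and 4 in the fit of all 24 libraries. Fn1, fibronectin, was at 2002, 1605 and 1774 CPM on day 7 and 522, 331 and 396 CPM on day 10 (log2 fold change -2.12, SE 0.09, adjusted p = 7.72e-12), while Spn, the sialoglycoprotein CD43, rose (2.71).

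Most neutrophil, granule and eosinophil markers were higher on day 10. Of the neutrophil and granule list, 19 of 26 tested members were higher and 4 lower, with a median log2 fold change of 0.92. S100a8, a calcium-binding protein of neutrophils and monocytes, was at 357, 425 and 698 CPM on day 7 and 968, 971 and 1381 CPM on day 10 (log2 fold change 1.19, SE 0.12, adjusted p = 2.94e-07). Ms4a3, a marker of granulocyte and monocyte precursors, was at 5.45, 3.25 and 6.98 CPM on day 7 and 26.4, 30.2 and 42.9 CPM on day 10 (log2 fold change 2.65, SE 0.15, adjusted p = 3.65e-10). On both days mouse 66 was highest for these genes. The receptor Csf3r was lower, at 96.7, 94.0 and 135 CPM on day 7 and 48.0, 43.0 and 51.3 CPM on day 10 (log2 fold change -1.18, SE 0.10, adjusted p = 2.55e-08). Cxcr2, at means of 26.1 and 20.6 CPM, did not pass the threshold. In other lists the receptors Ltb4r1 (1.075) and Fpr2 (0.45, with overlapping days) were higher. Stfa1 (3.13) belongs to a family of near copies and is uncertain. Eosinophil markers were higher in 6 of 7 and lower in 1, with a sum of 99.3 to 111 CPM on day 7 and 161 to 231 CPM on day 10. The number higher was 5 without any 1 of the mice, without the block or by DESeq2, and 4 in the fit of all 24 libraries. In those settings, and with only the 6 libraries, 0 were lower. Epx, the eosinophil peroxidase, was at 10.7, 14.3 and 12.2 CPM on day 7 and 36.8, 58.6 and 63.5 CPM on day 10 (log2 fold change 2.07, SE 0.11, adjusted p = 1.54e-10) after a lower mean of 5.36 CPM on day 8. Progenitor markers were higher in 6 of 12 and lower in 3, or 8 and 1 by TPM, with Cd34 rising from 2.67, 3.98 and 4.14 to 22.1, 18.3 and 18.8 CPM (log2 fold change 2.46, SE 0.14, adjusted p = 3.23e-10).

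Markers of further cell types were mostly low or fell. Mast cell and basophil markers summed to 95.3 to 119.5 CPM and 81.2 to 115 CPM, with 3 of 11 higher, 4 lower and Tpsab1 at 0 in all 6 libraries, shares near the 23.6% and 23.9% of all genes. By TPM these numbers were 5 and 3, and in the fit of all 24 libraries 1 and 2. Osteoclast markers were higher in 4 of 12 and lower in 8 (5 by TPM or in the fit of all 24 libraries), with Acp5 and Itgb3 among the latter and Calcr at 0, and their sum was 2101 to 2413 CPM and 1497 to 1881 CPM. Lymphoid markers summed to 4.00 to 8.01 CPM and 3.41 to 6.07 CPM, and 6 of 14 could be tested, of which 1 was higher and 1 lower (0 without mouse 63, 2 without mouse 66). Of erythroid and megakaryocyte markers 5 of 6 tested were lower and 0 higher, their sum fell from 313 to 351 CPM to 117 to 137 CPM, and Hba-a2, Hbb-bs and Alas2 were at 0. Pf4 and Ppbp, which myeloid cells also express, made up most of that sum. Stromal markers were higher in 2 of 11 and lower in 4, with 2 lower without the block or in the fit of all 24 libraries and 1 by TPM. Col1a1 varied among mice on day 7, at 10.8, 34.0 and 2.84 CPM, and overlapped with the 7.46, 2.58 and 2.29 CPM of day 10.

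**Figure D5:**
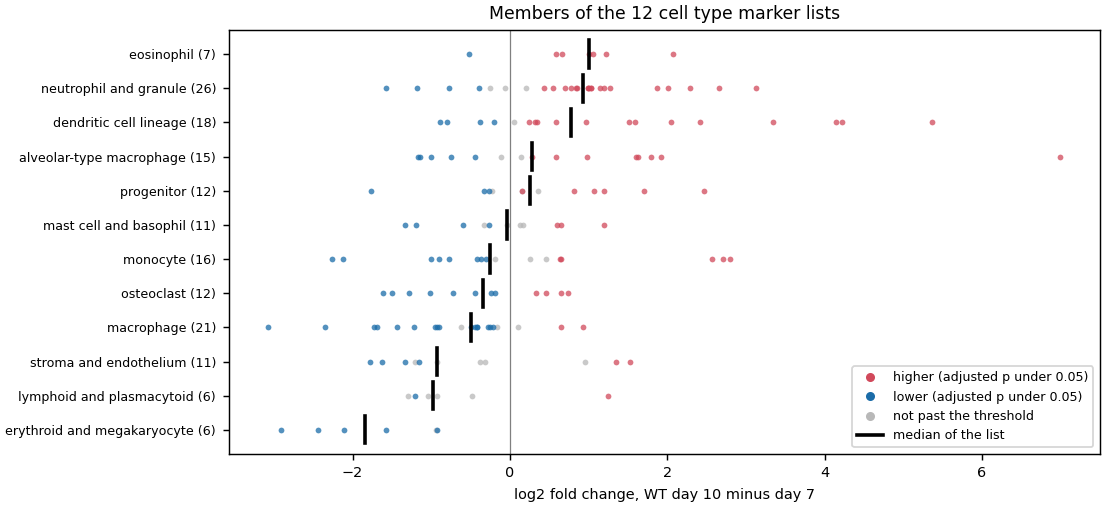
Members of 12 marker lists (rows, number tested in brackets) at their log2 fold change from day 7 to day 10 (x), coloured by the test, with a bar at each median. Eosinophil, neutrophil and dendritic cell lineage markers have medians of 1.00, 0.92 and 0.78, and macrophage markers -0.50.

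The KO cells changed in the same window, and few genes could be shown to change differently. In the fit of all 24 libraries the test of the difference between genotypes called 9 of 14535 genes (0.0619%), all with a KO change above that of WT, and 917 had an unadjusted p under 0.05. Asns had a log2 fold change of -1.90 (SE 0.16) in WT and -0.40 (SE 0.16) in KO in that fit, a difference of 1.50 (SE 0.22, adjusted p = 0.0062). Ptx3 fell in WT (-1.05, SE 0.17) and rose in KO (0.93, SE 0.17), a difference of 1.98 (adjusted p = 0.0014). The other genes called were the tRNA synthetases Aars, Nars, Cars and Eprs, the serine synthesis enzyme Psat1, Spred2 and Ccn3, of which Eprs, Psat1, Spred2 and Ccn3 lie outside the naming rule and were chosen after their values were seen. Ccn3 lost its call (adjusted p = 0.158) when mouse entered as a random block. The number called by edgeR was 0 with only the 12 libraries of days 7 and 10, where 819 had an unadjusted p under 0.05, and it was 37 by DESeq2. It was 3 without mouse 63, 2 without mouse 64 or 66, and 1 without mouse 65 or 68. For Chil3, S100a8 and S100a9 the KO log2 fold changes of the same 24-library fit were 0.07, 0.01 and -0.004, against 0.98, 1.19 and 1.01 in the paired WT fit, but the differences did not pass the threshold (adjusted p = 0.71, 0.63 and 0.72).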

How the data were processed

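Poly(A) RNA from cultured cells was sequenced on a NovaSeq as stranded paired-end libraries, per the labels' protocols. The authors deposited a table of counts per gene and a table of TPM values for all 24 libraries. STAR 2.6.1, FastQC 0.11.9, DESeq2 1.22.2 and mm10 are named in the submitters' processing notes, and the counter was not given in the sources used here. Of 55487 gene identifiers, 55094 were matched with their version to GENCODE M21.

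Counts of the 12 WT libraries were fitted with edgeR 4.0.16 (R 4.3.3; filterByExpr, TMM, quasi-likelihood test, 6 residual degrees of freedom) with day and mouse as terms, which tested 13933 of 26290 genes with a count. Same-mouse deviations correlated at 0.425, 0.362 and 0.337 over 10751 genes and those of different mice at -0.269 to -0.102, and pairing comes from the mouse numbers of the labels. CPM use TMM library sizes. Fold changes are fitted values, and p-values are Benjamini-Hochberg adjusted over all genes tested. Only the paired WT fit was tested on simulated data, with few genes changed and as many up as down. That simulation cannot check the scaling under changes as broad as those seen here. The genotype difference was tested in 24 libraries without a block. Alternatives used limma 3.58.1 on log2(TPM + 1), DESeq2 1.42.0, other filters and each mouse left out. Replicates are separate mice, and reads without molecular identifiers give counting error only.

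Named genes were called genes above a mean log2 CPM of 1 with a proper symbol and the same direction in all 3 mice: the 12 largest log2 fold changes and 10 largest CPM differences per direction, and up to 3 per direction of each of 40 functional and 12 marker lists. Other list members were named for their role, after their values were seen. Members, lists and rules were chosen with earlier results of these data known. Where days are set side by side, all changes share the day 7 libraries. Some members counted in the lists are not reported by name here.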

Additional observations from a re-analysis of the deposited data

Results flagged for a closer look

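By edgeR's interaction test over 24 libraries, 5 of the named genes changed differently in KO and WT cells between days 7 and 10. The KO change minus the WT change, on the log2 scale, was 1.98 for Ptx3 (adjusted p = 0.0014), 0.75 for Aars (adjusted p = 0.0040), 1.50 for Asns (adjusted p = 0.0062), 0.43 for Nars (adjusted p = 0.0237) and 0.70 for Cars (adjusted p = 0.0237). Aars had a log2 fold change of -0.67 in WT and 0.07 in KO, Cars -0.84 and -0.14, and Nars -0.61 and -0.18. With only the 12 libraries of days 7 and 10, the adjusted p-values were 0.0541 for Ptx3 and Aars, 0.101 for Asns, 0.291 for Nars and 0.124 for Cars. Without a filter on low counts Nars did not pass (adjusted p = 0.203), and the others did. Of these 5, only Ptx3 passed with each mouse left out in turn.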

How the results depend on the processing

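The 6615 calls of the WT comparison became 1775 when a change of 1 or more on the log2 scale was also required and 5013 to 5810 with 1 mouse left out. The fit with no replicate block, in place of the paired fit, gave 6094. The other alternatives gave 5376 (all 24 libraries) to 8057 (TPM). On the TPM scale 82.9% of calls were higher, in place of 49.8%. Of 284 named genes, 9 had the opposite sign there: Rfc2 (0.067), Nop14 (0.015), Noc2l (0.022), Gnl3 (0.064), Syvn1 (0.042), Ndufs3 (0.045), Sdha (0.051), Stat5b (0.044) and Gata2 (0.014). A further 23 lost the call on that scale, 36 in the fit of all 24 libraries, 11 without the block, and 6, 20 and 12 without mouse 63, 65 and 66. With TPM, 10 of 52 list medians changed sign as they stand and 3 relative to the median of all genes. Relative to that median, 2 changed sign when a mean count of at least 50 was required. Without mouse 63, 65 and 66 the numbers were 1, 3 and 2.

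The 9 calls of the genotype difference became 0 with only the 12 libraries of days 7 and 10 (819 at an unadjusted p under 0.05), 37 by the DESeq2 Wald test, 15 without a filter, 8 with mouse as a random replicate block, and 1 to 9 with 1 mouse left out. The cause of these differences was not tested. The 3 mice per genotype and day limit what small differences can be called, and genes under the filter were not tested.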
